A study of Mus musculus with 12 samples.

Results

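Irf1 is a transcription factor of the interferon response. It is described here with 8 interferon-related genes: B2m, H2-D1, H2-K1 and Tapbp of class I antigen presentation, and the antiviral genes Bst2, Ifitm1, Ifitm2 and Ifitm3. The genes were taken by symbol from a count table of 53819 symbols, of which 13852 passed the filter on low counts, as did all 9 of these. Irf1 was chosen by its measured interaction, meaning that its response to proline differed with and without budesonide, so its levels are given as a description with no test. The other genes were added as related genes, and their own interaction values are given with no test as well.

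The libraries came from E14, an established mouse embryonic stem cell line, grown in 2 dimensions. The 4 groups had 3 libraries apiece. One was left untreated (control), another received L-proline for 72 h, a further one the synthetic glucocorticoid budesonide for 72 h, and the last received the pair of compounds for 72 h, here called both. All groups were of the same line, and the labels name no doses, no vehicle and no interferon treatment. They also give no time for control, so a difference in culture time could not be told apart from treatment. Whether replicates came from different cultures is not stated, and p-values here reflect library-to-library spread only, possibly of technical origin.

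Interferon gamma signals through its receptor and the kinases Jak1 and Jak2 to the gamma-activated site (GAS) of target promoters, that of Irf1 among them. Nuclear factor NF-kappa-B also induces Irf1. Irf1 protein in turn binds interferon-stimulated response elements (ISRE) in promoters of class I and antiviral genes. Class I molecules carry peptides to the cell surface: a heavy chain, such as those made by H2-D1 and H2-K1, pairs with beta-2 microglobulin (B2m) and is loaded in the endoplasmic reticulum with the help of tapasin (Tapbp). Embryonic stem cells are known for low class I levels and a weak interferon response.

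The promoters below carry these motifs in the reference sequence and show what the genes share outside the counts. A search covered both strands of the 250 bases before the RefSeq start of each gene (GRCm38.p6, a build other than the GRCm39 of the counts), and all 9 genes had an entry. The motifs were the GAS (TTCNNNGAA), the ISRE core (a pair of GAAA with 2 bases of any kind between), the class I interferon consensus (the second run of capitals in H2-D1), the NF-kappa-B site, and the glucocorticoid response element (AGAACA and TGTTCT with 3 bases of any kind between). Capitals mark the matches, and where matches overlap the capitals run on.
Irf1, chr11:53769914-53770013, + strand: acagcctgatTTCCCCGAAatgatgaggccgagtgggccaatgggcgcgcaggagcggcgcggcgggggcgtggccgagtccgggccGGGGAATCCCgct
B2m, chr2:122147538-122147597, + strand: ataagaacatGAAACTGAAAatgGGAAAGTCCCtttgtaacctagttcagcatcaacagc
H2-D1, chr17:35262913-35262972, + strand: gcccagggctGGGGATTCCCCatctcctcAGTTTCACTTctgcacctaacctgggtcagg
H2-K1, chr17:34000409-34000468, - strand: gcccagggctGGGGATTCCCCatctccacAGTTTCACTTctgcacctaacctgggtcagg
Bst2, chr8:71537565-71537624, - strand: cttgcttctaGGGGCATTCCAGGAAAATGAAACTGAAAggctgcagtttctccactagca

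The Irf1 promoter held a GAS 90 to 82 bases before the start and an NF-kappa-B match 13 to 4 bases before it. B2m held an ISRE core next to an NF-kappa-B match. H2-D1 and H2-K1 shared an NF-kappa-B match followed by the class I consensus, and these 60-base stretches differed at 1 base. In Bst2 an NF-kappa-B match, a GAS and 2 overlapping ISRE cores ran together. Ifitm2 held an ISRE core and Ifitm3 an NF-kappa-B match, while the letters of these motifs were not found in the windows of Tapbp and Ifitm1. The RefSeq start lay 146 bases from the nearest GENCODE start for Tapbp and 364 for H2-D1, against 0 to 36 for the others. The place of those 2 windows is thus uncertain. Of 32851 promoter windows of the same length, 7.02% held a GAS, 2.98% an ISRE core, 0.128% the class I consensus, 7.25% an NF-kappa-B match and 0.00913% the glucocorticoid element, which none of the 9 genes had. A match is a run of letters and not evidence of binding.

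Library totals ran from 5.30 to 15.9 M counts, with proline 1 the deepest. Control 3 and budesonide 3 stood apart, with 6.57% and 8.43% of the tested genes at 0 counts, against 1.39% to 5.77% in the other libraries. Embryonic stem cell markers (Pou5f1, Nanog and 8 others) summed to between 3145 and 4269 CPM in every library, where CPM is the count divided by the library total in M after TMM scaling. Pou5f1 made up little of that sum, with group means of 26.9 to 30.3 CPM, against 436 to 965 CPM for Tdgf1. Blood and macrophage markers summed to 6.45 to 29.3 CPM over all libraries, with Lyz2 and Tyrobp at 0 in all of them. Fibroblast markers summed to 17.6 to 22.9 CPM with proline, 9.83 to 19.8 in control, 5.73 to 12.5 with budesonide and 3.07 to 6.29 with both, with Lum and Postn at 0 in every library. Of the 10 stem cell markers, Esrrb, Nanog and Zfp42 fell with proline and rose with both against proline, while Tdgf1 and Utf1 fell with budesonide and with both against proline. Germline markers summed to 127 to 162 CPM over all libraries.

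Irf1 was lowest in untreated cells and highest with proline alone. It stood at 30.6, 45.5 and 39.6 CPM in control, 145.8, 95.3 and 144.8 under proline, 72.0, 73.6 and 79.9 under budesonide, and 99.2, 107.2 and 86.4 under both. No library of control overlapped any treated library, and every budesonide library lay below every library of both compounds. The neighbours with both compounds and with proline overlapped, with proline 2 the low library of its group. Group means were 38.6 ± 7.50 CPM in control, 75.2 ± 4.21 with budesonide, 97.6 ± 10.5 with both and 129 ± 28.8 with proline (SD, n = 3). The summed levels of 9 endoderm markers had the same order of group means, 12.4 CPM in control (9.72 to 14.4), 15.6 with budesonide (5.40 to 20.98), 23.9 with both (19.9 to 27.4) and 29.4 with proline (27.1 to 32.0). None of the 9 was at 0 in a whole group, and Dab2 was the most abundant of them with proline (13.03 CPM). Sox17 alone was called, higher with proline and with budesonide, and it had 1 count over the control libraries. Foxa2 and Sox7 were lower with proline (0.82 and 0.50 CPM) than in control (1.70 and 1.47 CPM). With budesonide Gata4, Gata6, Foxa2, Sox7 and Afp were lower than in control. The part of the endoderm and stem cell markers in the Irf1 levels was not tested. In these bulk samples fewer cells of a type and less RNA per cell cannot be told apart.

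The single compounds did not add up for Irf1. Proline alone went with a 3.34-fold higher level than control and budesonide alone with a 1.95-fold higher level, which multiply to 6.52-fold, while cells given both stood 2.53-fold above control. On the linear scale proline added 90.0 CPM and budesonide 36.6 CPM. Those increments would sum to 165 CPM with the control level, and the measured mean with both was 97.6 CPM. The log2 change with proline was 1.74 ± 0.18 without budesonide and 0.38 ± 0.18 with it (edgeR, SE), and their difference, the interaction, was −1.36 ± 0.25. The interaction chose the gene, and 0.469% of the tested genes were called for an interaction, 0.411% with a higher and 0.0578% with a lower value. Over the alternatives run, including each library left out in turn, the interaction ran from −1.54 to −1.23. The log2 change for both compounds against proline alone was −0.40 ± 0.18. The plot of Irf1 by compound shows both reference points above the measured libraries.

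**Figure D1:**
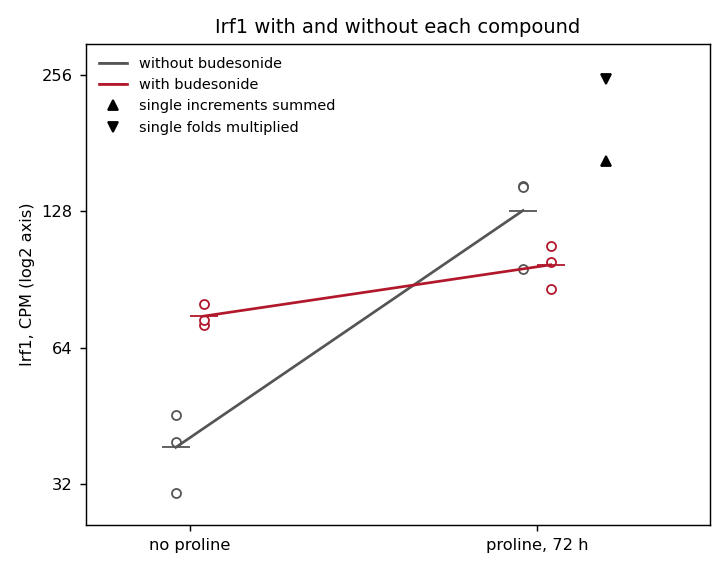
Irf1 level in CPM (log2 axis) without and with 72 h of proline, for libraries without budesonide (grey) and with it (red), with open circles for libraries, short bars for the mean of 3 and lines joining the means. The upward triangle marks the summed increments, 165 CPM, and the downward triangle the multiplied folds, and both lie above the 3 libraries given both compounds (86.4 to 107.2 CPM).

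Reads of an antisense gene could enter the Irf1 count, since the strand setting of the counting is not given in the sources used here. Gm17334 overlaps Irf1 on the opposite strand in GENCODE and had at most 97 counts in a library, while Irf1 had 187 to 2228 counts per library. How reads over both genes were counted is not given, so these counts do not bound the antisense reads within Irf1.

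Among the other 8 genes, H2-K1 and Bst2 rose with proline and none fell, where 3.17% of all tested genes rose, 4.71% fell and 7.88% were called in either direction. B2m and Tapbp rose with budesonide alone and none fell, where 2.51% rose, 554 of the 13852 genes fell and 6.51% were called. For both compounds against proline, Ifitm1 and Ifitm3 rose and H2-K1 and Bst2 fell, where 5.83% rose, 4.27% fell and 10.1% were called. For both against budesonide Ifitm1 rose and none fell, where 0.874% rose, 0.592% fell and 1.47% were called. Rose and fell mean an adjusted p below 0.05 in edgeR's quasi-likelihood test. Their median log2 change was 0.43 with proline, where all tested genes had −0.01, 0.07 with budesonide (all genes 0.01), 0.27 for both against proline (all genes 0.02) and 0.06 for both against budesonide (all genes 0.01). With proline the libraries of 4 of the 8 lay above all control libraries (12.7% of all tested genes) and those of 2 below (14.0%). With budesonide 2 lay above (11.5%) and 1 below (12.2%). For both against proline 4 lay above (16.3%) and 2 below (15.6%), and for both against budesonide 3 above (10.2%) and 0 below (9.23%). Any 2 comparisons that name the same group share its libraries. The interactions of the genes, given with no test, were −1.18 for Bst2, −0.68 for Tapbp, −0.37 for H2-K1, −0.31 for B2m, 0.26 for Ifitm2, 0.30 for Ifitm3, 0.61 for H2-D1 and 0.65 for Ifitm1.

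**Figure D2:**
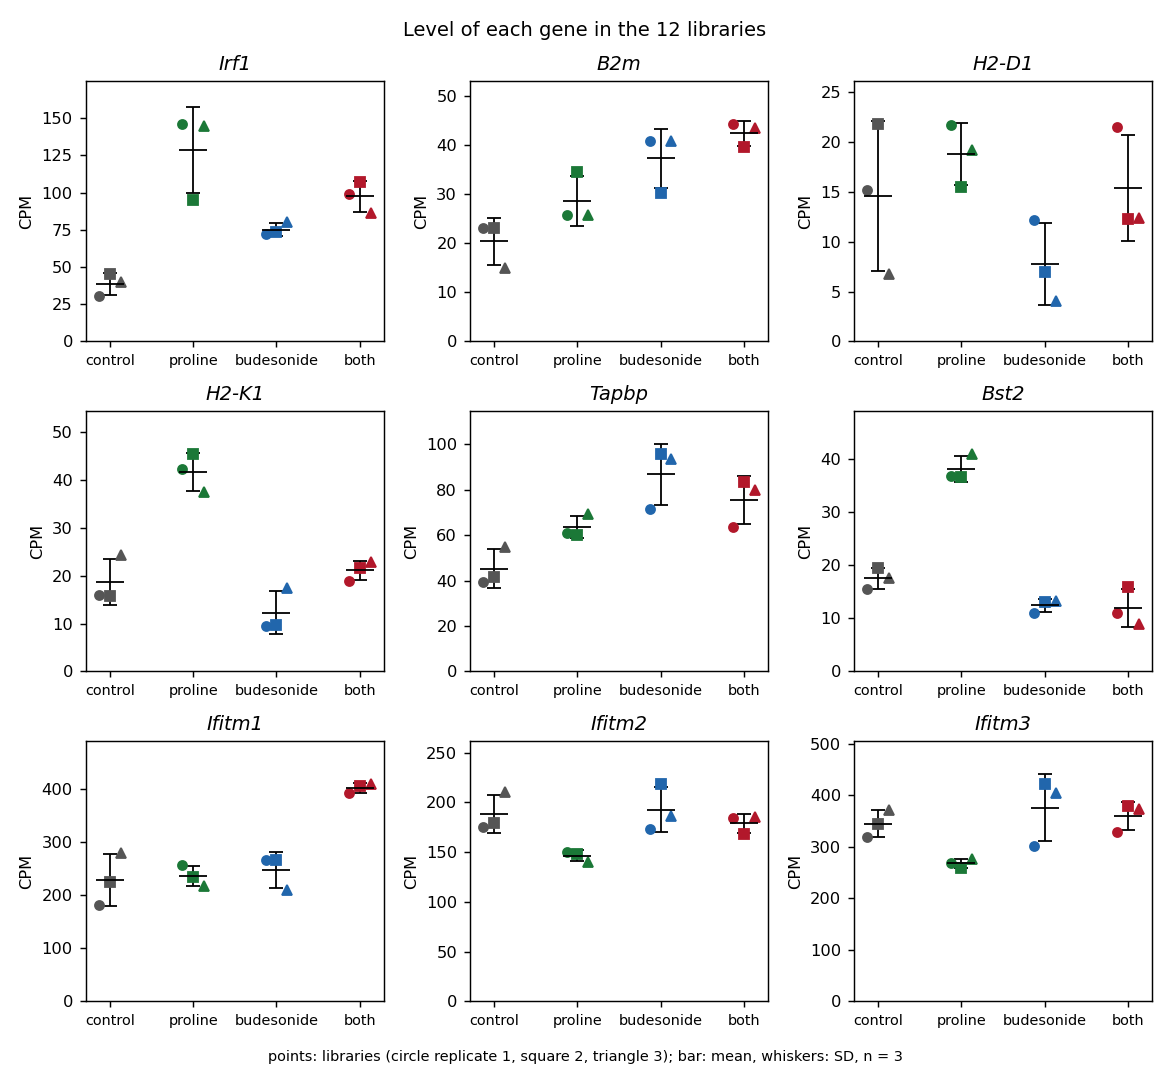
CPM of each of the 9 genes in the 12 libraries, by group, with points for libraries (shape by replicate number), a bar for the mean and whiskers for the SD (n = 3). Bst2 and H2-K1 are highest with proline, B2m and Tapbp are lowest in control, and Ifitm1 stands apart with both compounds (391 to 408 CPM).

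B2m, the light chain shared by all class I molecules, had higher group means with budesonide than without it. It stood at 23.2, 23.1 and 14.96 CPM in control, 25.8, 34.6 and 25.7 under proline, 40.8, 30.4 and 41.0 under budesonide, and 44.3, 39.6 and 43.5 under both. Every treated library lay above every control library, and the budesonide libraries overlapped those with proline and those with both compounds. The log2 change was 0.87 ± 0.24 with budesonide (adjusted p = 0.0261) and 0.49 ± 0.24 with proline (adjusted p = 0.260). For both against proline it was 0.57 ± 0.23 and not called (adjusted p = 0.132). The budesonide call ended without control 3 (adjusted p = 0.125), budesonide 1 (0.0820) or budesonide 3 (0.0781), without control 3 and budesonide 3 together (0.207) and with only the 6 libraries (0.0880), over a range of 0.00624 to 0.207. The summed trophoblast markers were higher in the budesonide groups without overlap (89.3 to 145 CPM, against 40.4 to 68.5 in the others). Their part in the B2m and Tapbp results was not tested. Tfap2c, Krt18 and Krt8 made up most of that sum, Krt18 alone was called with budesonide against control, Eomes went from 3.36 CPM in control to 1.21 with budesonide, Cdx2 from 1.07 to 0.94, and Tpbpa was at 0 in every library.

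Tapbp, which holds the empty class I molecule at the peptide transporter, was also lowest in control. It stood at 39.3, 41.6 and 54.9 CPM in control, 61.0, 60.2 and 69.2 under proline, 71.3, 95.5 and 93.4 under budesonide, and 63.4, 83.2 and 79.9 under both. No control library overlapped a treated one. It rose with budesonide alone by 0.93 ± 0.18 on the log2 scale (adjusted p = 0.00234, range over alternatives 5.16e-05 to 0.0188). The proline change of 0.49 ± 0.18 was not called (adjusted p = 0.113), but was without control 3 (0.0411) and without control 3 and budesonide 3 together (0.0325). Tapbp overlaps Zbtb22 on the same strand in GENCODE and shares 4.83% of the 50-base words of its transcript ends with it, so reads from that stretch are uncertain.

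The heavy chain genes H2-D1 and H2-K1 did not follow the order of B2m, which their proteins pair with. H2-K1 stood at 16.04, 15.8 and 24.2 CPM in control, 42.3, 45.3 and 37.4 under proline, 9.59, 9.76 and 17.4 under budesonide, and 18.9, 21.6 and 22.8 under both. Its proline libraries lay above all the rest. It rose with proline by 1.15 ± 0.28 on the log2 scale (adjusted p = 0.00920) and fell by −0.98 ± 0.27 with both against proline (adjusted p = 0.0221). The proline call ended without control 1 (adjusted p = 0.0556) or control 2 (0.0563), range 0.000875 to 0.0563. The call against proline ended without proline 1 (0.0709), proline 2 (0.0828), both 1 (0.104) or both 2 (0.0700), range 0.00299 to 0.104. The change with both against budesonide, 0.79 ± 0.28, was not called (adjusted p = 0.189), and was without control 3 and budesonide 3 together (0.0290).

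H2-D1 stood at 15.2, 21.8 and 6.79 CPM in control, 21.7, 15.5 and 19.2 under proline, 12.2, 6.97 and 4.08 under budesonide, and 21.5, 12.3 and 12.4 under both. In the 4 comparisons its libraries overlapped except for both compounds against budesonide, and it was called in none of them (adjusted p from 0.235 to 0.746). Within groups H2-D1 ran opposite to H2-K1. The correlation of their log2 CPM after removal of group means was −0.87 over the 12 libraries, a description over points that share library and depth. H2-D1 made up 48.7%, 57.9% and 21.9% of the summed CPM of the pair in control 1, 2 and 3, and 56.0%, 41.7% and 19.0% in budesonide 1, 2 and 3. The lowest shares fell in control 3 and budesonide 3, the libraries that stood apart. The opposition within groups was not particular to H2-K1. After removal of group means H2-D1 stood at −0.82 with Tapbp, −0.69 with Ifitm3 and 0.41 with B2m.

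The sum of H2-D1 and H2-K1 varied less between replicates than either gene in control, proline and budesonide, and as much as H2-K1 with both compounds (9.46% for each). Its coefficient of variation was 11.2% in control and 14.1% with budesonide, where H2-D1 alone had 51.5% and 53.0% and H2-K1 alone 25.6% and 36.4%. The summed level was 33.3 ± 3.73 CPM in control, 19.99 ± 2.82 with budesonide, 36.5 ± 3.46 with both and 60.5 ± 3.76 with proline (SD, n = 3), and only control and both compounds overlapped. Fitted as 1 feature, the pair rose with proline (log2 0.86 ± 0.20, adjusted p = 0.00778), fell with budesonide (−0.73 ± 0.21, adjusted p = 0.0327), fell with both against proline (−0.73 ± 0.20, adjusted p = 0.0204) and rose with both against budesonide (0.87 ± 0.20, adjusted p = 0.0328). The interaction of the sum was 0.00 ± 0.27, given with no test. The heavy chain sum thus fell with budesonide where B2m and Tapbp rose. How the authors' counting treated reads that match both genes is not given in the sources used here, and H2-K1 shared 7.71% of the 50-base words in the last 500 bases of its transcripts with H2-D1.

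**Figure D3:**
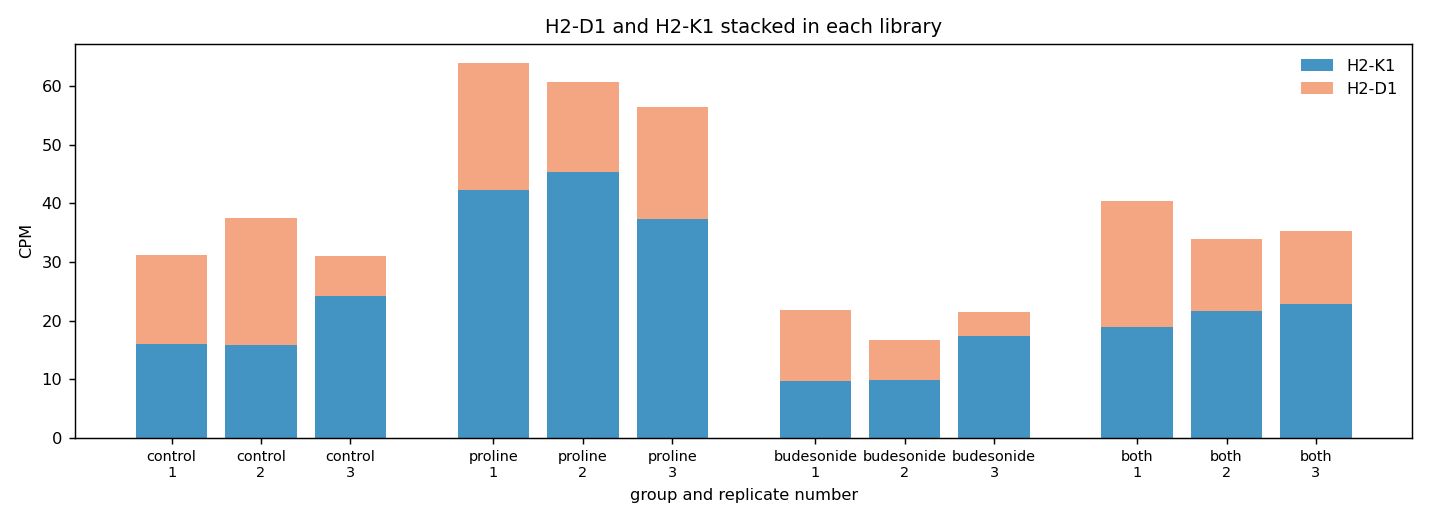
H2-K1 (blue) and H2-D1 (orange) CPM stacked in each of the 12 libraries, ordered by group and replicate number. The height of the stack differs little within a group, while the H2-D1 share runs from 21.9% to 57.9% in control and from 19.0% to 56.0% with budesonide.

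Bst2, or tetherin, which holds budding viruses at the cell surface, was high in 1 group. It stood at 15.5, 19.5 and 17.6 CPM in control, 36.8, 36.6 and 40.8 under proline, 10.9, 13.02 and 13.3 under budesonide, and 10.9, 15.9 and 8.94 under both. The proline libraries lay above all others, and the groups given budesonide overlapped each other. It rose with proline by 1.12 ± 0.27 on the log2 scale (adjusted p = 0.00990, range 0.00149 to 0.0611, with the call lost without control 1 or proline 3). It fell with both against proline by −1.67 ± 0.27 (adjusted p = 0.000257). The proline change was −0.06 ± 0.28 in the presence of budesonide (adjusted p = 0.971). Its interaction, given with no test, was −1.18 ± 0.38. The summed fibroblast markers were also highest with proline and lowest with both compounds (17.6 to 22.9 against 3.07 to 6.29 CPM), and their part in the Bst2 and H2-K1 results was not tested. Thy1 (11.9 CPM) and Dcn (5.69 CPM) made up most of the proline sum, Col1a1 went from 2.72 CPM in control to 0.29 with proline, and of the 4 fibroblast markers tested none was called with proline and Thy1 fell with both against proline.

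The Ifitm genes make small membrane proteins that block virus entry. Ifitm1 stood at 182, 224 and 279 CPM in control, 256, 234 and 217 under proline, 266, 266 and 209 under budesonide, and 391, 404 and 408 under both. The libraries given both compounds lay above all 9 others, which overlapped across their groups. It rose with both against proline by 0.76 ± 0.14 (adjusted p = 0.000732) and against budesonide by 0.70 ± 0.14 (adjusted p = 0.0104, or 0.0621 without budesonide 3). Over the alternatives the latter p ran from 7.45e-05 to 0.421, where 0.421 is that of Ifitm1, Ifitm2 and Ifitm3 summed. The single compounds gave 0.05 ± 0.14 for proline (adjusted p = 0.918) and 0.11 ± 0.14 for budesonide (adjusted p = 0.738). The interaction was 0.65 ± 0.20, opposite in sign to that of Irf1 and given with no test.

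Ifitm2 and Ifitm3 were lowest with proline. Ifitm3 stood at 319, 345 and 371 CPM in control, 269, 259 and 276 under proline, 302, 421 and 405 under budesonide, and 329, 380 and 373 under both. Its proline libraries lay below all others. The proline change of −0.36 ± 0.12 was not called (adjusted p = 0.0761), and with DESeq2 it was (0.0414). The rise with both against proline, 0.43 ± 0.12 (adjusted p = 0.0270), was lost without proline 1, 2 or 3 or both 2 or 3. The range was 0.00160 to 0.117, where 0.00160 is that of Ifitm1, Ifitm2 and Ifitm3 summed. Ifitm2 ran from 140 to 150 CPM with proline and from 168 to 218 in the other groups, with a proline change of −0.36 ± 0.13 (adjusted p = 0.0817, or 0.0419 with DESeq2).

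Ifitm1 made up 42.2% to 43.2% of the summed Ifitm1, Ifitm2 and Ifitm3 CPM with both compounds, 34.3% to 37.9% with proline, 26.1% to 35.9% with budesonide and 27.0% to 32.4% in control. The share with both compounds overlapped no other group. In a list of 5 tested Ifitm genes, edgeR called 0 with proline (3 at an unadjusted p below 0.05, DESeq2 3, all lower, limma-voom 0). With budesonide it called 0 (0 by each of these). Over all tested genes 7.88% and 6.51% were called in these comparisons. With both against proline 2 rose (5 at an unadjusted p below 0.05, DESeq2 4, limma-voom 2), where 5.83% of all tested genes rose. With both against budesonide 1 rose (1 by each of these), where 0.874% rose. Fitted as 1 feature the trio rose with both against proline (0.53 ± 0.11, adjusted p = 0.00160) and was not called against budesonide (0.21 ± 0.10, adjusted p = 0.421). Of the 50-base words at the transcript ends, 11.8% of Ifitm1, 41.9% of Ifitm2 and 14.0% of Ifitm3 occur in transcripts of another gene. The most shared gene was Gm7676 for Ifitm1 (8.65% of its words) and Ifitm3 (6.43%), and Gm45717 for Ifitm2 (25.3%). Gm7676 had 8 counts over all libraries and Gm45717 had 0. The words these Ifitm genes share with each other were not read out, but no gene shares more words with each than the gene named for it. How reads that match several genes were counted is not given, so how well the Ifitm reads are split is not known.

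**Figure D4:**
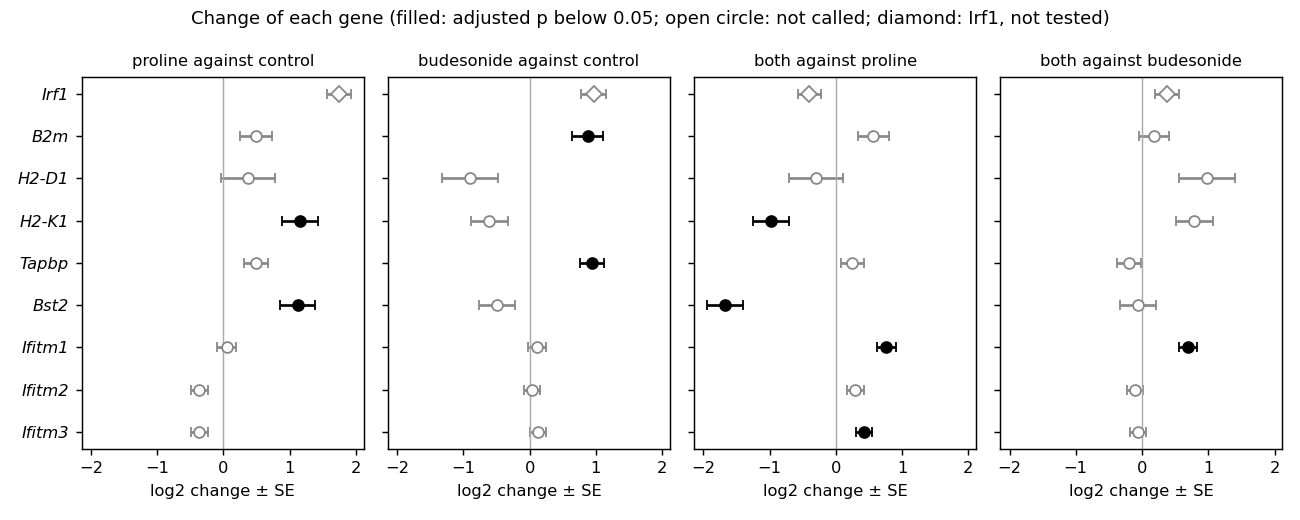
Log2 change (x axis, whiskers for the SE) of the 9 genes in 4 comparisons, from a fit of all 12 libraries. Filled circles passed an adjusted p of 0.05, open circles did not, and the diamond is Irf1, which was not tested. H2-K1 and Bst2 are filled on the right with proline and on the left for both against proline.

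The rest of the class I pathway was read from a list of 32 genes that includes B2m, H2-D1, H2-K1 and Tapbp, of which 21 were tested. With proline 3 rose and none fell by edgeR (9 had an unadjusted p below 0.05, DESeq2 called 6 and limma-voom 4), with a median log2 change of 0.60, where 3.17% of all tested genes rose with a median of −0.01. With budesonide 2 rose and 1 fell (median 0.01, all genes 0.01), where 6.51% of all genes were called. With both against proline 1 rose and 3 fell (median −0.55, all genes 0.02), where 5.83% rose and 4.27% fell, and with both against budesonide 1 rose (median 0.63, all genes 0.01), where 0.874% rose. Psmb10, a catalytic subunit of the immunoproteasome that cuts peptides for class I, was, like H2-K1, highest with proline, but with both compounds it lay below every control library. It stood at 87.1, 81.5 and 103 CPM in control, 172, 185 and 151 under proline, 45.3, 40.5 and 54.8 under budesonide, and 49.7, 50.005 and 63.0 under both.

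Psmb10 rose with proline by 0.90 ± 0.16 (adjusted p = 0.000662), fell with budesonide by −0.95 ± 0.16 (adjusted p = 0.000799) and fell with both against proline by −1.64 ± 0.16 (adjusted p = 4.44e-07). Psme2, a subunit of the proteasome activator PA28, rose with proline by 1.02 ± 0.20 (adjusted p = 0.00187) and fell with both against proline by −0.79 ± 0.20 (adjusted p = 0.0117, or 0.0594 without both 1 and 0.0564 without both 2, range 0.00179 to 0.0594). It rose with both against budesonide by 0.90 ± 0.20 (adjusted p = 0.0265), a call lost under 7 of 13 alternatives (up to 0.118), among them each library of both compounds left out. Pdia3, a chaperone of the loading complex, rose with both against proline by 0.52 ± 0.13 (adjusted p = 0.0128, range 0.00253 to 0.0944, lost without proline 2, both 1 or both 2).

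Tap1, Psmb8, Psmb9 and Nlrc5 had few counts. The peptide transporter gene Tap1 stood at 3.15 ± 1.06 CPM in control, 8.41 ± 1.65 under proline, 1.60 ± 1.16 under budesonide and 3.04 ± 2.32 under both (SD, n = 3), and it was not called with proline (adjusted p = 0.355). Psmb8, another immunoproteasome subunit, had 5 counts in control, 147 under proline, 0 under budesonide and 25 under both. Psmb9 had 10, 68, 23 and 32 counts. Neither was called with proline (adjusted p = 0.140 and 0.525). The class I transactivator Nlrc5 had 0, 19, 12 and 0 counts and was too low to test. A count of 0 in the 3 budesonide libraries allows up to 0.131 CPM (3 counts, counting error only).

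The genes of interferon signalling itself were not called. Of 15 tested genes for interferon receptors and the signalling proteins that act with them, edgeR called 0 in each of the 4 comparisons, as did DESeq2 and limma-voom, and 1 to 3 had an unadjusted p below 0.05. Over all tested genes 7.88% were called with proline, 6.51% with budesonide, 10.1% for both against proline and 1.47% for both against budesonide. Beside these shares, 0 of 15 is no result about the list. The interferon gamma receptor genes Ifngr1 and Ifngr2 had group means of 2.00 to 4.57 and 2.22 to 3.85 CPM. Of 7 other tested IRF genes and IRF-binding partners, Irf2bpl rose with budesonide (0.45 ± 0.14, adjusted p = 0.0493, range 0.0102 to 0.169) and lost that call under 11 of 13 alternatives. Over all tested genes 2.51% rose with budesonide. In the other 3 comparisons edgeR called 0 of the 7, with 1 or 2 at an unadjusted p below 0.05, and DESeq2 called 1 in all and limma-voom 0. Irf9, a subunit of the complex that binds the ISRE, stood at 15.05 ± 4.15 CPM in control and 8.61 ± 1.63 with proline (adjusted p = 0.223). Irf2, which competes with Irf1 for its sites, had 6 counts in all 12 libraries and Irf7 had 5.

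The antiviral genes that interferon induces most strongly were near or at the floor. Isg15, a ubiquitin-like modifier, had 0 counts in control, 5 under proline, 22 under budesonide and 9 under both. Ifit1 had 1, 30, 0 and 3 counts, and Mx1 and Mx2 had none in the 12 libraries, which allows up to 0.0330 CPM. Of 25 tested genes of this list, which includes Bst2, 1 rose and 1 fell with proline, 1 rose and 1 fell with budesonide, and 1 rose and 1 fell with both against proline. With both against budesonide 1 rose. Their median log2 changes were 0.19, 0.26, −0.43 and −0.04, where those of all tested genes were −0.01, 0.01, 0.02 and 0.01. The shares called over all tested genes, 7.88%, 6.51%, 10.1% and 1.47%, are near these counts, which are no result about the list.

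Trim25, a ubiquitin ligase that acts on the RNA sensor RIG-I, was the member of that list that rose with budesonide. It stood at 136, 141 and 135 CPM in control, 144, 104 and 133 under proline, 204, 240 and 266 under budesonide, and 193, 192 and 185 under both. The groups given budesonide did not overlap the others. Its log2 changes were 0.78 ± 0.13 with budesonide (adjusted p = 0.000779) and 0.58 ± 0.13 with both against proline (adjusted p = 0.00613, or 0.0514 without proline 2). Gbp2, an interferon-induced GTPase, had 21 counts in control, 161 under proline, 0 under budesonide and 73 under both. It was called lower with budesonide (adjusted p = 0.0222, or 0.195 with limma-voom) and higher with both against budesonide (0.0166, or 0.103 with limma-voom), on few counts, and these calls were lost under 5 and 2 of 11 alternatives. Xaf1, a pro-apoptotic factor, fell with proline from 6.70 ± 2.07 to 1.55 ± 1.23 CPM (adjusted p = 0.0473, range 0.0166 to 0.207), a call lost under 8 of 13 alternatives.

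Of 7 tested sensors and adaptors for foreign nucleic acid, Ddx58, which encodes RIG-I, fell with proline by −1.04 ± 0.24 on the log2 scale (adjusted p = 0.00800, or 0.0584 without proline 1, range 0.00139 to 0.0584). It stood at 42.9, 41.2 and 50.6 CPM in control and 18.5, 25.3 and 21.8 with proline. Over all tested genes 4.71% fell with proline, and 1 call among 7 is no result about the list. In the other 3 comparisons edgeR, DESeq2 and limma-voom called 0 of the 7, with at most 1 at an unadjusted p below 0.05. The shares called over all tested genes were 6.51% with budesonide, 10.1% for both against proline and 1.47% for both against budesonide.

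The NF-kappa-B list had 15 tested genes. With proline 1 fell, with budesonide 2 rose and with both against proline 1 rose, with medians of −0.05, 0.47 and 0.32, where those of all tested genes were −0.01, 0.01 and 0.02. Over all tested genes 4.71% fell with proline, 2.51% rose with budesonide and 5.83% rose with both against proline. With both against budesonide edgeR called 0 (1 at an unadjusted p below 0.05, DESeq2 0, limma-voom 0). Nfkbia, the inhibitor that holds NF-kappa-B in the cytoplasm and is itself one of its targets, was lowest with proline, where Irf1 was highest. It stood at 126, 120 and 116 CPM in control, 78.1, 72.4 and 79.3 under proline, 245, 198 and 199 under budesonide, and 173, 206 and 201 under both. Its log2 changes were −0.66 ± 0.13 with proline (adjusted p = 0.00197), 0.83 ± 0.13 with budesonide (adjusted p = 0.000370) and 1.34 ± 0.13 with both against proline (adjusted p = 3.36e-07). Nfkb1 rose with budesonide by 1.498 ± 0.42 (adjusted p = 0.0314), and the change was 0.61 without control 3 and budesonide 3 together (adjusted p = 0.538) and 0.87 without budesonide 3 alone (0.293). That call was lost under 8 of 13 alternatives.

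**Figure D5:**
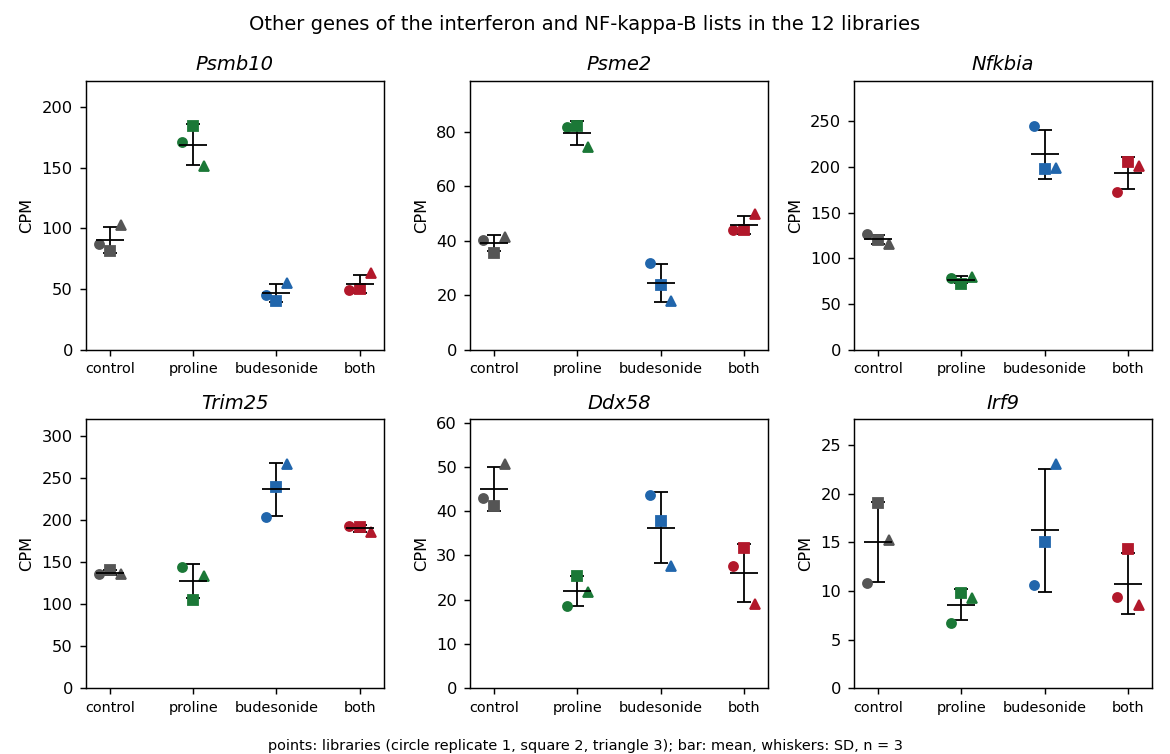
CPM of 6 genes of the interferon and NF-kappa-B lists in the 12 libraries, with points for libraries, a bar for the mean and whiskers for the SD (n = 3). Psmb10 and Psme2 are highest with proline, Nfkbia is lowest with proline (72.4 to 79.3 CPM), and Irf9 is lower with proline than in control without passing the test.

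None of the 8 related genes was among the closest to Irf1 across the libraries. The genes with the highest Pearson correlation of log2 CPM over the 12 libraries, which share their group structure, were Adam19 (r = 0.94), a membrane metalloproteinase, Ptbp1 (0.93), a splicing regulator, Ciapin1 (0.93), Ubxn8 (0.92) and the small nucleolar RNA host gene Snhg1 (0.92). Those most opposite were Esf1 (−0.97), Pcyt1b (−0.95), Stmn2 (−0.94), Gm10800 (−0.93) and Kif20b (−0.93). Among the 8, Tapbp was closest to Irf1 with r = 0.58 and rank 815 of the other tested genes, followed by H2-K1 and B2m at 0.50 each. Ifitm2 was lowest at −0.57. The closest pairs among all 9 genes were Ifitm2 with Ifitm3 at 0.85 and H2-K1 with Bst2 at 0.77. After removal of group means these pairs stood at 0.58 and 0.09, and the closest pair was then Tapbp with Ifitm3 at 0.89.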

How the data were processed

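Total RNA was extracted and 3′ end libraries of polyadenylated RNA were made, per the labels' protocols. Per the submitters' processing notes, GRCm39 was the build, and the tools included STAR 2.7.5c, featureCounts 2.0, cutadapt 2.5, bcl2fastq and DESeq2. Which annotation was counted, whether by strand, and how multi-gene reads were handled is not given in the sources used here. The authors deposited whole-number counts per gene symbol, and these were tested. Their table of normalised values was not used.

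Groups and replicate numbers came from the sample titles. Counts were fitted in R 4.3.3 with edgeR 4.0.16 (filterByExpr with minimum count 10 and minimum total 15, TMM, quasi-likelihood F test, two-sided, all 12 libraries, 1 coefficient per group, 8 residual degrees of freedom), with Benjamini-Hochberg adjustment over the 13852 genes tested and a threshold of 0.05. SEs were obtained by dividing the size of a log2 change by the root of its F value. Log2 changes used a prior count of 0.125. Log2 CPM for correlations used a prior count of 2. The fit was tested on simulated data. Alternatives used DESeq2 1.42.0, limma 3.58.1 (voom), DESeq2 size factors in edgeR, no low-count filter, only the compared libraries, a replicate block and libraries left out. A further one summed genes of a family (H2-D1 with H2-K1, and Ifitm1 with Ifitm2 and Ifitm3). Replicates of a group differed beyond sampling noise (chi-square per degree of freedom 5.55 or higher).

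Promoters came from RefSeq (GRCm38.p6), and words of 50 bases in the last 500 bases of transcripts from GENCODE. Members and gene lists were chosen with earlier results of these data known. The text names the 9 genes, at most 3 called genes of a list per direction and comparison, further pathway genes whatever their change (Irf2, Irf9, Ifngr1, Ifngr2, Tap1, Psmb8, Psmb9, Nlrc5, Isg15), and the 5 genes most and least correlated with Irf1. Ifit1, Mx1, Mx2 and Irf7 counts were added after their values were seen. One item covered by this rule is not reported here.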

Additional observations from a re-analysis of the deposited data

How the results depend on the processing

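Of the alternatives for the 9 genes, 604 kept direction and call, 20 lost a call, 12 gained one, 13 reversed sign and 6 moved by more than the spread between replicates with no test. All 13 reversals were of changes that were not called. With a library left out, Ifitm1 ran from −0.0887 to 0.22 with proline and from −0.0231 to 0.28 with budesonide, Ifitm2 from −0.0708 to 0.12 with budesonide, and, for both against budesonide, Bst2 from −0.33 to 0.12, Ifitm2 from −0.17 to 0.00698 and Ifitm3 from −0.20 to 0.0438. The sum of Ifitm1, Ifitm2 and Ifitm3 gave −0.23 with proline and 0.21 for both against budesonide. These values of the sum are counted above as reversals of Ifitm1 with proline and of Ifitm2 and Ifitm3 for both against budesonide. Some of the gained, lost and moved results above are also those of a sum. Genes called over the whole table went from 1091 to between 674 and 887 with a library left out for proline, from 902 to between 620 and 809 for budesonide, from 1399 to between 836 and 1095 for both against proline, and from 203 to between 80 and 171 for both against budesonide. The count fell by over 1.5 times without control 1, proline 1 or proline 3 (proline), without proline 1, both 1 or both 2 (both against proline), and without any of the 6 libraries but budesonide 2 (both against budesonide). The budesonide count was 493 with only the 6 libraries and 575 without control 3 and budesonide 3 together. For both against budesonide DESeq2 gave 435, omitting the filter 354, fitting just those 6 libraries 120 and the replicate block 128. The interaction count of 65 was 162 with DESeq2 and 134 with no filter, and ran from 44 to 89 with a library left out. The cause of these moves was not tested, beyond the smaller number of libraries in some. Replicate numbers showed no pairing of the libraries. Deviations of same-numbered libraries correlated at −0.157 to 0.0741 across genes (median −0.024). For differently numbered libraries of different groups the values were −0.223 to 0.240 (median 0.010). The block ended no call of the 9 genes, and ended the Nfkb1 (adjusted p = 0.0717) and Irf2bpl (0.0670) calls.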
